A study of Mus musculus with 8 samples.

Results

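The 36 aminoacyl-tRNA synthetase genes examined here were taken by symbol from a list of 20 cytosolic and 16 mitochondrial enzymes, out of 21887 protein-coding genes of the autosomes, X and Y. All 36 matched a gene of the mm10 assembly (GRCm38). For each gene, called peaks that overlapped the gene or the 1 kb beyond its start or end by at least 1 base were collected in 6 peak lists. The lists come from chromatin immunoprecipitation and sequencing of C2C12 cells, a mouse myoblast line that differentiates when serum is lowered, with a polyclonal rabbit antibody against APOBEC2, a member of the AID/APOBEC cytidine deaminase family expressed mainly in muscle. There were 3 immunoprecipitated (IP) libraries and 1 input library at 34 h, and 3 IP libraries and 1 input library at 14 h after a change to medium with 2% horse serum. The growth protocol gives the earlier harvest as 24 h, so the earlier time is uncertain. All lists carry the tag GFPsh in their names, which the labels do not explain. The labels do not say that replicates were separate cultures, no IP with a control antibody or from cells lacking APOBEC2 was used here, and peak lists hold no expression values with which to check the cell type.

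Aminoacyl-tRNA synthetases join each amino acid to its tRNA and so supply every ribosome with its substrates. Cytosolic and mitochondrial translation use largely separate sets of nuclear-encoded enzymes, the mitochondrial ones usually marked by a final 2 in the symbol, while Gars and Kars encode enzymes of both compartments. Several cytosolic synthetases (those of Dars, Eprs, Iars, Kars, Lars, Mars1, Qars and Rars) are held together in the multisynthetase complex by the scaffold proteins Aimp1, Aimp2 and Eef1e1. Many cytosolic synthetase genes are known targets of ATF4, the transcription factor of the amino acid response.

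Peaks reached 16 of the 36 genes (44.4%) in at least 1 library, 9 of 20 cytosolic and 7 of 16 mitochondrial, against 20.2% of all protein-coding genes. In all 6 libraries 3 genes (8.33%) had a peak, against 2.26% of all protein-coding genes. Those 3 were the valyl-tRNA synthetase gene Vars and the alanyl-tRNA synthetase gene Aars among the cytosolic enzymes, and the mitochondrial methionyl-tRNA synthetase gene Mars2. Promoter entries of RefSeq (GRCm38.p6, from 250 bases before to 50 after an annotated start) contained the summits of these peaks, and they are shown because they are the sequences under the most constant signal. At Mars2 the entry was its own, on the plus strand (chr1:55236927-55237226). At Vars it was that of the neighbouring gene D17H6S56E-5, on the minus strand (chr17:35000697-35000996). Vars had no promoter entry, so whether one of its own would also hold the summits is not known. At Aars it was that of Exosc6, an RNA exosome subunit gene, on the plus strand (chr8:111056089-111056388). Capitals mark matches to the motifs described further on, and each sequence runs 5′ to 3′ on the strand of its gene.
Mars2: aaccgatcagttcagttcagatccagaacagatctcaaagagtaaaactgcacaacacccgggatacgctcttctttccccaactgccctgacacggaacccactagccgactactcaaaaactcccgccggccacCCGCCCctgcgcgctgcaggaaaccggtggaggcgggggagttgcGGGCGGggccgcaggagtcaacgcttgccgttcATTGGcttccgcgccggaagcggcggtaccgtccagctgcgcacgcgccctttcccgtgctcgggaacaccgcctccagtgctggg
D17H6S56E-5: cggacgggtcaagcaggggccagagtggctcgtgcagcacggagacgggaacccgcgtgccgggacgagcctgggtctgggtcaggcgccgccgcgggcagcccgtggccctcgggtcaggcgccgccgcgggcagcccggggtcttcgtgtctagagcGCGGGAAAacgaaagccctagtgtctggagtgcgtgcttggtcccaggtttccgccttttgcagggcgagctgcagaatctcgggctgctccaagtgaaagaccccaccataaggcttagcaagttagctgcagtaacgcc
Exosc6: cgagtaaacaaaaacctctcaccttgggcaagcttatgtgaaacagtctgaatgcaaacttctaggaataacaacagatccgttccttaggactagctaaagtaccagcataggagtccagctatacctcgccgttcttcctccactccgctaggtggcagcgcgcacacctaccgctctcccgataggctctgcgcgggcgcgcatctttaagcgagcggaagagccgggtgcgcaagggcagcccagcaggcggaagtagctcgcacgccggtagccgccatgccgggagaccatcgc
Counted from the first base of each entry, the 6 summits lay at bases 131 to 172 at Mars2, 125 to 176 at D17H6S56E-5 and 193 to 222 at Exosc6. The G and C content of the 3 entries was 63.3%, 67.0% and 57.7%, and the median of 21263 promoter entries of protein-coding genes was 56.3%.

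Vars had the highest fold of the synthetase genes in 5 of 6 libraries, and Mars2 was above it in replicate 3 of 14 h. The fold is the ratio that the authors' peak caller gives of the IP pile-up to the local background; it describes a peak within its own list and was not tested between times. It was 23.0, 28.8 and 17.3 in replicates 1, 2 and 3 of 34 h, against 26.6, 40.1 and 24.0 in replicates 1, 2 and 3 of 14 h, with means of 23.0 ± 5.77 for 34 h and 30.2 ± 8.66 for 14 h (n = 3 each, ± SD). Replicate 2 was the highest of each time, and the times overlapped. The summits stood on 42 to 78 IP fragments at 34 h and on 49 to 88 at 14 h, numbers that follow from the fold and p-value of each peak, and they fell within 51 bp of each other over the 6 libraries. Ordered by p-value, the peak was number 34 of 2209, 31 of 5025 and 37 of 1068 at 34 h, and number 31 of 768, 31 of 1327 and 63 of 797 at 14 h. The part common to all 6 peaks (chr17:35000691-35001016) bridged the gap between D17H6S56E-5, which ends at 35000774, and Vars, which begins at 35000907, with summits 35 to 86 bp outside Vars. The signal cannot be given to Vars rather than to its neighbour.

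Mars2, a gene of 2882 bp with no other protein-coding gene's window under its peak, was the highest mitochondrial member. Its folds were 12.2, 16.3 and 7.31 in replicates 1, 2 and 3 of 34 h, against 25.7, 31.1 and 24.5 in replicates 1, 2 and 3 of 14 h, with means of 11.9 ± 4.48 for 34 h and 27.1 ± 3.51 for 14 h (n = 3 each, ± SD). All 3 folds of 34 h lay below the 3 of 14 h. The median fold of a whole list separated the times in the same way. It was 5.92, 5.72 and 6.04 in replicates 1, 2 and 3 of 34 h, against 8.11, 8.00 and 8.48 in those of 14 h. The IP fragments behind the Mars2 folds did overlap, at 42, 67 and 28 in the 34 h libraries and 55, 75 and 55 in the 14 h libraries. The background of the caller at these summits was 2.54 to 3.18 fragments at 34 h and 1.18 to 1.44 at 14 h, and the median background over a whole list also was higher at 34 h, at 2.2 to 2.73 against 1.41 to 1.80 fragments at 14 h. The part of the difference in fold that this background accounts for was not tested. Summits lay 79 to 120 bp before the annotated start, within 41 bp of each other.

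Aars showed a peak of constant position beyond its annotated end, not at its start. The gene lies on the plus strand (chr8:111027778-111055569), and the summits stood 712 to 741 bp past its end and 29 to 58 bp before the start of Exosc6. Folds were 13.5, 13.3 and 7.86 in replicates 1, 2 and 3 of 34 h, against 15.9, 20.6 and 17.7 in replicates 1, 2 and 3 of 14 h. The 34 h values were all below those of 14 h, as were the median folds of whole lists (5.72 to 6.04 against 8.00 to 8.48). The fragments at Aars overlapped, with 28 to 54 at 34 h and 44 to 69 at 14 h. The background there was 2.63 to 3.14 fragments at 34 h against 1.83 to 2.40 at 14 h. No library had a peak at the annotated start of Aars, whether taken from these gene positions or from its promoter entry, which starts further inside. By distance the peak belongs to Exosc6, and it counts for Aars only because the window runs 1 kb past the gene.

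**Figure D1:**
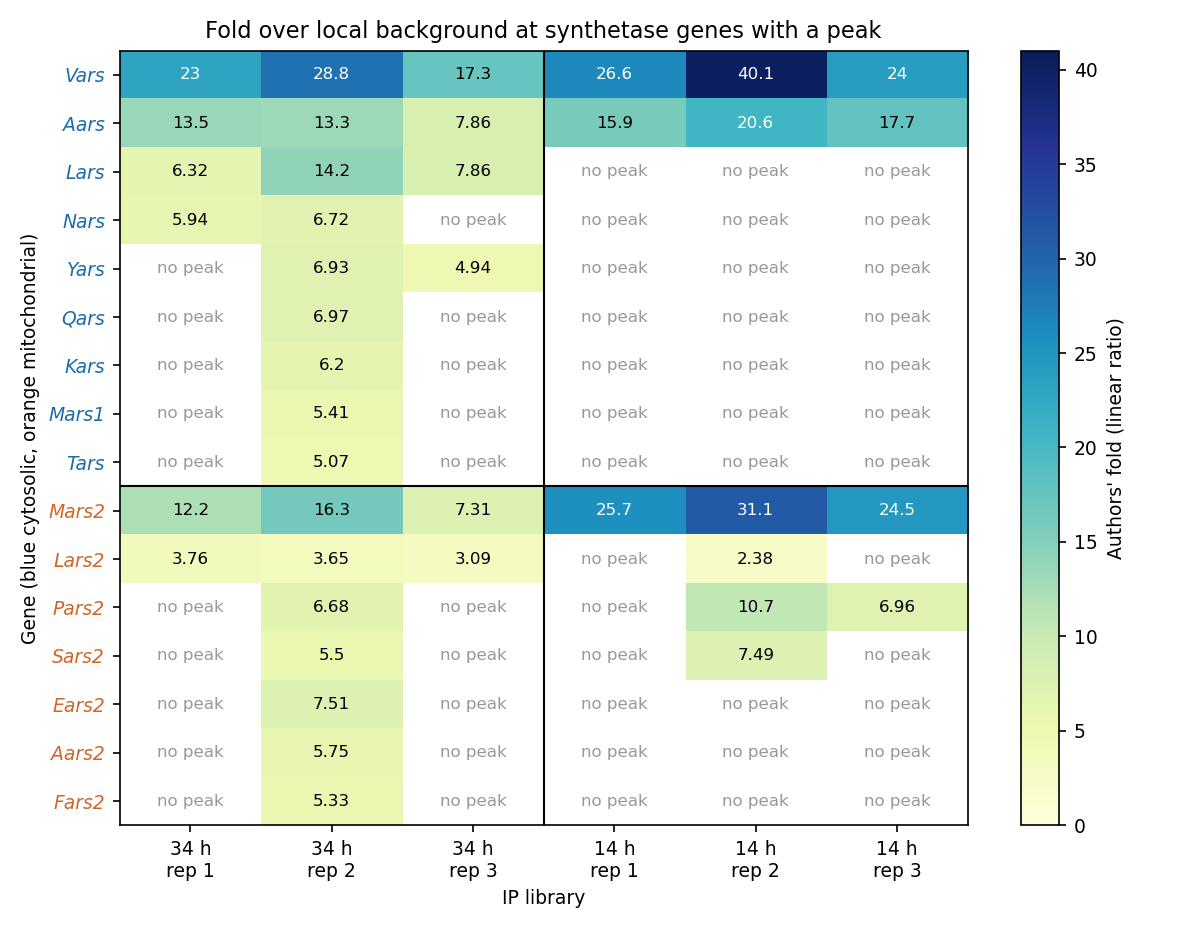
Authors' fold over local background (linear ratio, colour and number) at the 16 synthetase genes with a peak, in the 3 libraries of 34 h (left) and of 14 h (right); where a library had several peaks at a gene, the one of lowest p-value is shown. Only the rows of Vars, Aars and Mars2 are filled in all 6 libraries, and 7 genes have a value in replicate 2 of 34 h alone.

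A gene was called at a time when 2 or all of its 3 libraries had a peak, and by this rule 7 of 36 genes (19.4%) were called at 34 h, against 4 of 36 (11.1%) at 14 h. Of all protein-coding genes, 9.01% were called at 34 h and 4.27% at 14 h. The median length was 26970 bp for the synthetase genes and 17169 bp for all protein-coding genes, and of 41 pairs of a synthetase gene and a library with a peak, 36 had the summit of the peak of lowest p-value within 1 kb of a gene boundary. The part of gene length in these shares was not tested. In 18 of the 41 pairs, at 7 genes, the peak of lowest p-value also touched the window of another protein-coding gene. No share over all genes is given for either count of pairs. Genes called at both times were Vars, Aars and Mars2 (8.33% of the 36; 3.50% of all genes). Genes called at 34 h and not at 14 h were Lars, Nars, Yars and Lars2 (11.1% of the 36; 5.51% of all genes), and Pars2 was called at 14 h and not at 34 h (0.768% of all genes). With all 3 libraries required, 5 genes were left at 34 h (3.95% of all genes) and 3 at 14 h (2.96%). Without replicate 2 of 34 h, 5 genes were called at that time in both libraries left, Aars, Lars, Lars2, Mars2 and Vars (3.98% of all genes).

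Lars, which encodes leucyl-tRNA synthetase, a complex member that also acts as a leucine sensor for mTORC1, had peaks in all 3 libraries of 34 h and in none of 14 h. The folds at 34 h were 6.32, 14.2 and 7.86 in replicates 1, 2 and 3, on 16, 41 and 20 fragments, with replicate 2 the highest. These peaks covered the upper boundary of the gene, with summits from 19 bp outside to 39 bp inside it, and replicate 1 had an additional, weaker peak 251 bp inside (fold 5.94). No other protein-coding gene lay within 1 kb of them. A site with no called peak is not shown to be unbound, since called summits stood on at least 10 fragments.

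Nars, the asparaginyl-tRNA synthetase gene, had a peak in replicates 1 and 2 of 34 h (folds 5.94 and 6.72, on 20 and 24 fragments), 103 and 153 bp outside its upper boundary, and none in replicate 3 of 34 h or at 14 h. Yars, the tyrosyl-tRNA synthetase gene, had a peak in replicates 2 and 3 of 34 h (folds 6.93 and 4.94, on 23 and 14 fragments), 14906 and 14970 bp downstream of its annotated start and deep inside the gene. In replicate 3 the Yars peak was number 1007 of 1068 by p-value, close to the end of that list. Neither gene had a peak in all 3 libraries of 34 h.

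The mitochondrial leucyl-tRNA synthetase gene Lars2 had a peak of another kind. It lay inside the gene, 652 to 659 bp before its end (common part chr9:123461885-123462083), in replicates 1, 2 and 3 of 34 h with folds of 3.76, 3.65 and 3.09, and in replicate 2 of 14 h with a fold of 2.38. In each of these libraries it was the lowest fold of any synthetase peak, yet the summits stood on 173, 185 and 153 fragments at 34 h and on 110 in replicate 2 of 14 h, above any other synthetase peak. The background there was 45.3, 50.0 and 48.9 fragments in the 34 h libraries and 45.7 in replicate 2 of 14 h. In those 4 lists, 61 of 2202, 56 of 5019, 78 of 1052 and 69 of 1320 peaks had a background as high or higher. A separate peak at the annotated start of Lars2 was called in replicate 2 of 34 h alone (fold 4.56, 16 fragments, 76 bp before the start). Without the peak near the end, Lars2 would not have been called at 34 h.

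Pars2, the mitochondrial prolyl-tRNA synthetase gene, had a peak in replicate 2 of 34 h (fold 6.68), and at 14 h in replicates 2 and 3 (folds 10.7 and 6.96). The summits lay 106 to 145 bp outside its lower boundary, with no other protein-coding gene within 1 kb. The mitochondrial seryl-tRNA synthetase gene Sars2 had a peak in replicate 2 of each time, with a fold of 5.50 at 34 h and 7.49 at 14 h. It lay 17 to 38 bp before the annotated start, in a promoter shared with Mrps12, a gene of the small mitochondrial ribosomal subunit on the other strand.

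**Figure D2:**
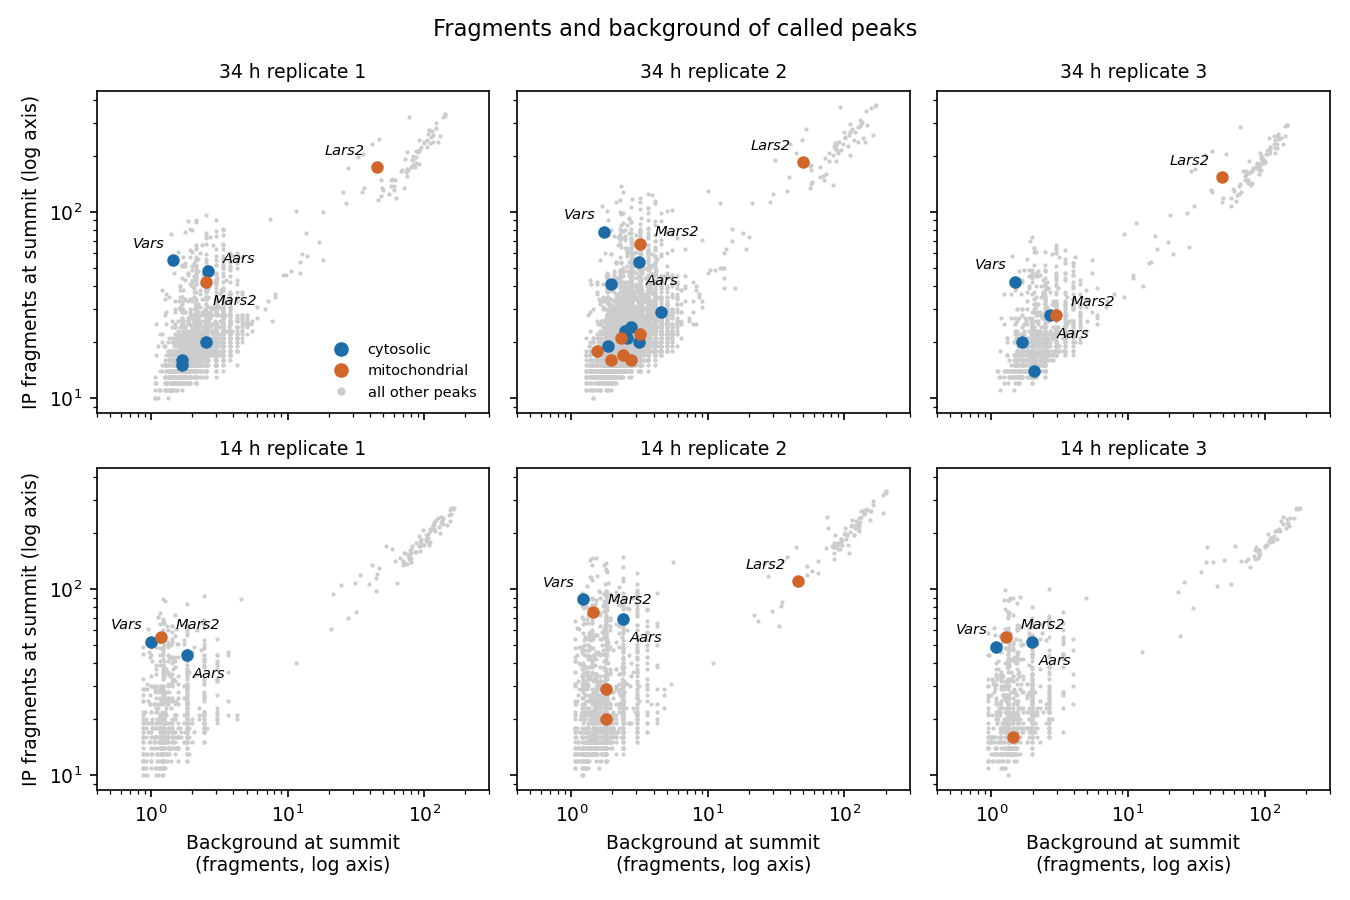
IP fragments (vertical, log axis) against the background of the peak caller (horizontal, log axis) at every called summit on the autosomes, X and Y, by library, with 34 h above 14 h; blue points are peaks at cytosolic and orange points at mitochondrial synthetase genes, grey points all other peaks. The Lars2 peak near the gene's end stands at a background of 45.3 to 50.0 fragments, while Vars, Mars2 and Aars lie among the peaks with a background of 0.996 to 3.18.

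In replicate 2 of 34 h, the longest list, 16 of 36 genes (44.4%; 18.1% of all genes) had a peak, and 7 of them (19.4% of the 36; 7.85% of all genes) had none in any other library. These were Kars, Qars, Mars1 and Tars among the cytosolic enzymes and Ears2, Aars2 and Fars2 among the mitochondrial ones, with folds from 5.07 at Tars to 7.51 at Ears2 on 16 to 29 fragments. The summits at Mars1, Tars, Ears2, Aars2 and Fars2 lay between 116 bp before and 182 bp after an annotated start of the gene. Those of Ears2 and Fars2 fell in promoters that are shared with Ubfd1 and with Lyrm4, a gene of iron-sulfur cluster assembly. The remaining pair lay at the ends of the genes: the Kars peak overlapped Adat1, which encodes a tRNA-specific adenosine deaminase, with its summit 38 bp outside that gene, and the Qars peak overlapped Qrich1, with its summit 17 bp inside. Kars and Qars had the peaks nearest to the limit of the window, with edges 989 and 974 bp from the gene.

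**Figure D3:**
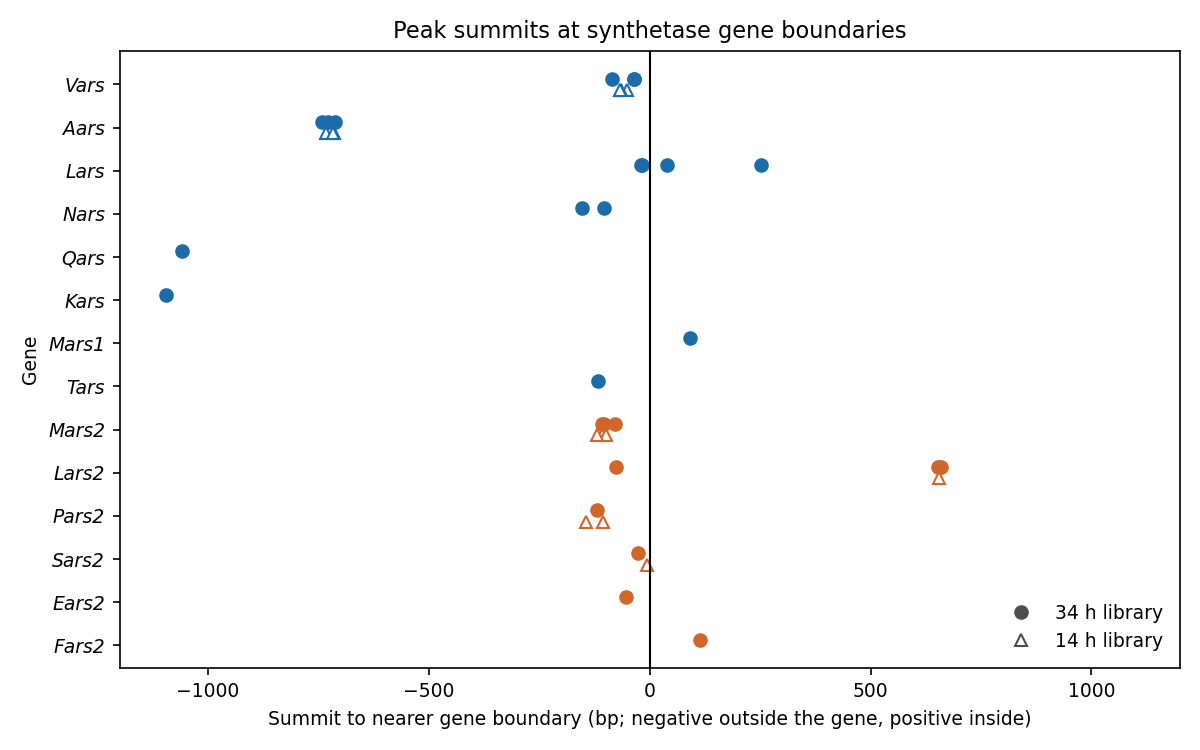
Distance in bp from each called summit to the nearer boundary of the synthetase gene (negative outside, positive inside), with filled circles for 34 h libraries and open triangles for 14 h libraries; blue is cytosolic and orange mitochondrial, and a gene may have several peaks in a library. Summits at Vars, Mars2, Pars2 and Sars2 lie within 145 bp of a boundary and those at Aars 712 to 741 bp outside; Yars (14367 and 14431 bp inside) and Aars2 (3508 bp inside the lower boundary) fall beyond the plotted range.

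The remaining 20 genes had no peak in any of the 6 libraries. They were the 11 cytosolic genes Cars, Dars, Eprs, Farsa, Farsb, Gars, Hars, Iars, Rars, Sars and Wars and the 9 mitochondrial genes Cars2, Hars2, Iars2, Nars2, Rars2, Tars2, Vars2, Wars2 and Yars2. Among them were Hars and Hars2, which overlap at their boundaries. The nearest peaks outside the window were 3778 bp from Dars, where 5 of 6 libraries had a peak within 5 kb, and 4628 bp from Cars2, where 1 library had a peak within 5 kb.

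The contrast of cytosolic with mitochondrial enzymes showed no constant direction. At 34 h a peak in at least 2 libraries was called at 5 of 20 cytosolic genes (25.0%) and 2 of 16 mitochondrial genes (12.5%), against 9.01% of all protein-coding genes. At 14 h it was called at 2 of 20 (10.0%) and 2 of 16 (12.5%), against 4.27% of all protein-coding genes. The cytosolic counts of both times include Vars and Aars, whose peaks touch a neighbouring gene. The mitochondrial count of 34 h includes Lars2, called through its peak of low fold on a high background. Without replicate 2 of 34 h the cytosolic count at that time was 3 (3.98% of all genes). Without replicate 2 or without replicate 3 of 14 h the mitochondrial count at that time was 1, with no share of all genes given. With a replicate left out, both libraries left had to have a peak, so these counts could only stay or fall. The share of cytosolic minus that of mitochondrial genes with a peak was 7.5, 1.25 and 7.5 percentage points in replicates 1, 2 and 3 of 34 h. In replicates 1, 2 and 3 of 14 h it was 3.75, −15.0 and −2.5 percentage points. It was thus positive in 4 of 6 libraries, each difference rests on a few genes, and no test was made on a chosen list. With a peak in any of the 6 libraries counted, the shares were 45.0% for cytosolic and 43.8% for mitochondrial genes, against 20.2% of all protein-coding genes. Median gene lengths of the classes were close, at 26970 bp and 25131 bp. Of 8 genes of the multisynthetase complex, 1 was called at 34 h and 0 at 14 h, and of the 12 other cytosolic genes 4 were called at 34 h and 2 at 14 h, where 9.01% and 4.27% of all genes were; these counts are too small to set the complex apart. For 14 amino acids a cytosolic gene of their own and a mitochondrial gene were listed. Glutamate and proline, which share the cytosolic gene Eprs, were left out of this count, and Eprs had no peak. Leucine was the only amino acid with both genes called at 34 h, and there was 0 at 14 h.

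Numbers of genes with a peak in each library were compared between times. Cytosolic genes with a peak numbered 4, 9 and 4 in replicates 1, 2 and 3 of 34 h, against 2 in each replicate of 14 h, so the times did not overlap. Mitochondrial genes with a peak numbered 2, 7 and 2 at 34 h, against 1, 4 and 2 at 14 h, which overlapped. The mean difference of 34 h minus 14 h was 3.67 cytosolic and 1.33 mitochondrial genes per library. Of all protein-coding genes, 9.24%, 18.1% and 4.7% had a peak in replicates 1, 2 and 3 of 34 h, against 3.72%, 6.5% and 3.97% in those of 14 h. The mean share of all genes was higher at 34 h as well, at 10.7% against 4.73%. The times overlapped in this share, since replicate 3 of 34 h lay below replicate 2 of 14 h. With every list limited to its 768 peaks of lowest p-value, the length of the shortest list, cytosolic genes with a peak numbered 2, 3 and 3 at 34 h against 2, 2 and 2 at 14 h, a mean difference of 0.667. With those lists 5 of 36 genes were called at 34 h (3.16% of all genes) and 4 of 36 at 14 h (3.76%). Mitochondrial genes numbered 2, 2 and 2 at 34 h and 1, 3 and 2 at 14 h. Of all protein-coding genes, 3.63%, 3.62% and 3.42% had a peak in these shortened lists of replicates 1, 2 and 3 of 34 h. In those of 14 h the shares were 3.72%, 3.98% and 3.87%. Parts of list length, depth and time in these differences were not separated. Without replicate 2 of 34 h the mitochondrial difference changed sign, to −0.333.

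**Figure D4:**
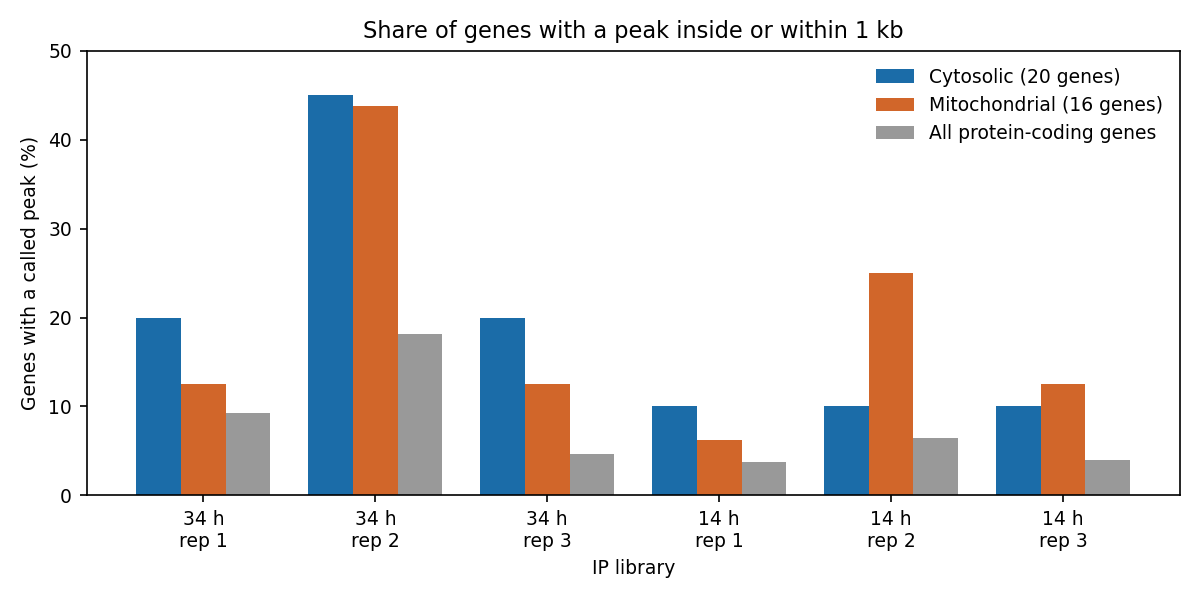
Percentage of genes with a called peak inside the gene or within 1 kb of it, in each IP library, with 34 h left of 14 h; bars are the 20 cytosolic and 16 mitochondrial synthetase genes and all protein-coding genes. Both classes reach their highest share in replicate 2 of 34 h (45.0% and 43.8%), where the share of all genes is also highest (18.1%).

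Promoter entries were given for 27 of the 36 genes, 13 cytosolic and 14 mitochondrial, and were searched on both strands for short motifs, as a description with no test. The called genes Vars, Lars, Nars and Pars2 had no entry and are absent from the motif counts. A match is not a bound site. The CEBP-ATF response element, TGATGNAA, was in 5 of 13 cytosolic and 0 of 14 mitochondrial entries, and in 4.13% of 17492 protein-coding genes with an entry. The 5 genes were Aars, Gars (glycyl-tRNA synthetase), Iars (isoleucyl-tRNA synthetase), Tars (threonyl-tRNA synthetase) and Yars. The match nearest to the start given by the promoter entry of each gene is shown in capitals with up to 10 bases on either side, on the strand of each gene, because the element is the known binding site of ATF4. At Aars that start lies inside the gene as placed above, which begins at 111027778.
Aars, chr8:111033841-111033868: gcgggtcactTTTCATCAgagcgctctg
Gars, chr6:55037961-55037988: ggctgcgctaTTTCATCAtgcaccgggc
Iars, chr13:49682127-49682154: actgtcagtaTTGCATCAcctccagacg
Tars, chr15:11399656-11399683: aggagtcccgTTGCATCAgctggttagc
Yars, chr4:129189896-129189923: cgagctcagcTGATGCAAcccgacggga
Of these entries, that of Tars held a summit, in replicate 2 of 34 h alone. Gars and Iars had no peak, and the peaks of Aars and Yars lay elsewhere.

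The E box CACGTG was in 4 of 13 cytosolic entries (Aars, Farsb, Iars and Tars) and 1 of 14 mitochondrial entries (Ears2), against 8.91% of all genes. The SP/KLF motif GGGCGG was in 19 of 27 entries, against 49.2% of all genes, and the NF-Y motif CCAAT in 13 of 27, against 42.3%. The cell cycle genes homology region TTTGAA was in 2 of 27 entries, against 18.5% of all genes. The E2F motifs TTTCCCGC and TTTGGCGC were in 2 and 1 of 27 (1.61% and 0.726% of all genes), the ETS motif CCGGAAGT in 3 of 27 (5.69%) and the palindromic NRF1 motif in 0 of 27 (1.47%). Among the 3 printed promoters, that of Mars2 held 2 GGGCGG and 1 CCAAT, that of D17H6S56E-5 held 1 TTTCCCGC on the other strand, 91 bases before its start, and that of Exosc6 held none of the 9 motifs.

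Of 16 partners and related enzymes, 2 were called at 34 h (12.5%, against 9.01% of all genes) and 0 at 14 h (against 4.27%). The higher was Aimp2, a scaffold of the multisynthetase complex, with folds of 5.65 and 9.09 in 2 libraries of 34 h and 12.1 in 1 library of 14 h. The other was Qrsl1, which encodes a subunit of the mitochondrial amidotransferase that makes glutaminyl-tRNA, with folds from 4.61 to 7.06 at 34 h and no peak at 14 h. The scaffold gene Eef1e1 had no peak, and Aimp1 had a peak in 1 library of 34 h (fold 5.02). For these genes the place of a peak within the window, and any neighbouring gene under it, were not examined.

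Of 25 genes of the amino acid response, 5 were called at 34 h (20.0%, against 9.01% of all genes) and 1 at 14 h (4.00%, against 4.27%, so close to the share of all genes). Here too, peaks were not placed relative to the gene or its neighbours, so a peak may belong to a neighbouring gene. Atf5, a relative of ATF4, had a peak in all 6 libraries, as 2.26% of all protein-coding genes did. Its folds were from 5.04 to 6.69 at 34 h and from 7.71 to 10.7 at 14 h. The median folds of whole lists were 5.72 to 6.04 at 34 h and 8.00 to 8.48 at 14 h. Eif2ak3, which encodes the kinase PERK, had a peak in all 3 libraries of 34 h (folds 7.18 to 11.0) and none of 14 h. Slc3a2, which encodes the heavy chain of amino acid transporters, had a peak in all 3 libraries of 34 h and 1 of 14 h, and Mthfd2, a mitochondrial folate enzyme gene, and the amino acid transporter gene Slc38a2 had a peak in 2 libraries of 34 h each. No peak in any library was found at 15 of the 25 genes, against 79.8% of all protein-coding genes, and Atf4, Ddit3, Asns, Psat1, Trib3 and Chac1 were among them. Each of the remaining genes had a peak in 1 library.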

How the data were processed

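The samples were C2C12 cells, with 3 anti-APOBEC2 IP libraries and 1 input at each of 34 h and 14 h, grouped by their titles. The submitters' processing notes name Subread, MACS2 and the mm10 build, with versions and thresholds not given in the sources used here. Each IP library had its own peak list, called with the input of the same time as control, per the names of the deposited files. In the deposited lists the fold is a linear ratio over local background, and significance is given as −log10 p and −log10 q. The deposited score, 10 times −log10 q without decimals, was not used.

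The fragments and background at a summit were solved from the deposited fold and p-value (Python 3.11.15, SciPy 1.17.1), leaving a misfit of at most 0.001 in −log10 p for 100% of peaks on the autosomes, X and Y. The solver and the assignment of peaks to genes were tested on simulated data. The median summit stood on 19 to 24 fragments, which limits the precision of each fold. Gene positions came from RefSeq on GRCm38.p6, the primary assembly of mm10, which gives no strand or exons; strand was known for the 27 genes with a promoter entry. "Lower" and "upper" boundary mean the smaller and larger coordinate.

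A gene was called at a time when at least 2 of 3 libraries had a peak in its window. Every synthetase gene with a peak was named. Of the lists of related enzymes and of the amino acid response, genes called at a time were named, and the scaffold genes and those given without a peak were singled out after their values were seen. An item of the list of related enzymes is not reported here and was left out of its count. Counts were set beside the share of all protein-coding genes, with no test on the chosen list. The genes, the lists and the motifs were chosen with earlier results of these data known. The 5 genes with the CEBP-ATF element were singled out after their values were seen. The alternatives tried were peaks with −log10 q of 5 or more, lists of equal length, other windows, shared peaks left out, 1 or 3 libraries required, and each replicate left out.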

Additional observations from a re-analysis of the deposited data

How the results depend on the processing

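By the rule of the report, 5 cytosolic and 2 mitochondrial genes were called at 34 h, and 2 and 2 at 14 h. Cytosolic genes called at 34 h numbered 3 with lists of equal length (3.16% of all genes) and with all 3 libraries required (3.95% of all genes). They also numbered 3 with the gene body alone and with shared peaks left out, and 9 with any library (19.1% of all genes). Mitochondrial genes at 34 h numbered 7 with any library. Cytosolic genes at 14 h numbered 1 with the gene body alone, 0 with shared peaks left out, since the peaks of Vars and Aars both touch a neighbour, and 1 with each peak given to the nearest gene, an alternative chosen after seeing the data. Mitochondrial genes at 14 h numbered 1 with the gene body alone. They numbered 1 with all 3 libraries required (2.96% of all genes) and 4 with any library (6.96% of all genes). For the gene body alone, shared peaks left out and the nearest gene, no share of all genes is given. A fall in those counts thus cannot be set against that of all genes. With a replicate left out, both libraries left had to have a peak, so a count could only stay or fall. The counts then ran from 3 to 4 cytosolic and stayed at 2 mitochondrial at 34 h. At 14 h they were 2 cytosolic and 1 to 2 mitochondrial. Without replicate 2 of 34 h, 3 cytosolic genes were called at that time, where 3.98% of all genes were. The mean difference between times of 3.67 cytosolic genes was 0.667 with lists of equal length and 2.00 to 4.50 with a replicate left out. That of 1.33 mitochondrial genes ran from −0.333 (without replicate 2 of 34 h) to 2.17 with a replicate left out, and was 0.0 with lists of equal length. The other settings moved no count of called genes by more than 1.5 times. They gave mean differences of 2.67 to 3.33 cytosolic genes, and of 0.667 (shared peaks left out) to 1.67 mitochondrial genes, beside an SD of 2.89 genes over the 34 h libraries. No paired analysis was possible because the results come from no test that a block could enter; pairing libraries by number leaves each mean difference as it is. Fold, background and depth were not separated.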
